A study of Mus musculus with 2 samples.

Results

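Homeostatic microglia are recognised by a set of genes for surface and secreted proteins, and 10 of these are described here: Tmem119, Cx3cr1, Siglech, Fcrls, Olfml3, Selplg, Slc2a5, Crybb1, Ecscr and Sparc. They were chosen by symbol from a fixed list, each matched 1 of 31053 genes in the count tables, and all 10 were detected in both libraries. The question was which of them are lost, and which persist, in microglia whose Cst7 count exceeds their P2ry12 count. Cst7 encodes cystatin F and is a gene of disease-associated microglia, and P2ry12 encodes a purinergic receptor of homeostatic microglia.

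The cells came from the brain cortex of male 5xFAD hemizygous mice on a C57BL/6J background, a transgenic model that forms amyloid plaques. At 4 months of age they were injected with 5 uL of the photosensitive drug Visudyne, either alone (control) or with 5 steps of 689-nm light shone through the skull, which ablates meningeal lymphatic vessels (photoconversion). Injection and light were given again 3 weeks later, and brains were collected 3 weeks after that, at a labelled age of 5.5 months. Both groups carried the transgene and received Visudyne, and each group was 1 droplet library of cells pooled from 3 mice and sorted as live, Ly6G-negative, CD45-positive and CD11b-positive. Because a group was a single library, no difference could be checked against replicates: values carry 95% intervals for counting error only, and no test was made.

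In the healthy brain, microglia depend on signals from their surroundings, among them TGF-beta and CSF1 receptor ligands, to keep up a gene program that other macrophages largely lack. Around amyloid plaques a part of the microglia turns this program down and turns up genes of lysosomes, lipid handling and phagocytosis, a state known as disease-associated microglia. Tmem119, Siglech and P2ry12 are widely used to tell resident microglia from other myeloid cells of the brain.

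The files held 2672902 UMIs (unique molecular identifiers, each standing for 1 captured RNA molecule) for the control and 2038693 for the photoconversion library, over 2000 barcodes each. Cells that passed a minimum of 200 detected genes and a limit of 10% mitochondrial UMIs numbered 555 and 317, and 0 of these barcodes were shared between the libraries. Cst7-dominant cells, with more Cst7 than P2ry12 UMIs, were 207 of the control cells (37.3%, 33.3 to 41.5%) and 157 of the photoconversion cells (49.5%, 43.9 to 55.2%). P2ry12-dominant cells numbered 290 and 133, and 58 and 27 cells were tied. The 8 microglia markers examined were all detected in both classes. At 1000 UMIs per cell they summed to 162 UMIs on average in P2ry12-dominant and 85.5 in Cst7-dominant control cells, and to 158 and 85.5 after photoconversion, with no fewer than 9 in any of these cells.

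Depth differed between the classes. The median Cst7-dominant cell held 4655 UMIs (control) or 5852 UMIs (photoconversion), and the median P2ry12-dominant cell 2206.5 or 2739. All levels below are therefore mean UMIs per 1000 after each cell was thinned at random to 1000 UMIs. This left 183 Cst7-dominant and 232 P2ry12-dominant control cells and 142 and 119 photoconversion cells, and shallower cells were left out (24, 58, 15 and 14 in the same order).

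At equal depth all 10 genes were lower in Cst7-dominant than in P2ry12-dominant cells, in both libraries. The size of the difference ran from a ratio of 0.0450 to 0.576 in the control library and from 0.0914 to 0.609 in the photoconversion library. A gene under a ratio of 0.5 is called lost here, and one from 0.5 to under 0.8 reduced. By this rule 8 of 10 were lost in the control and 9 of 10 after photoconversion, 8 of them in both. Among those called lost, the interval held 0.5 for Siglech in both libraries and for Cx3cr1 and Sparc after photoconversion. Sparc was at 0.5 or more in the control library and Fcrls in both, and 0 of 10 reached 0.8 in either library, so none persisted at the level of P2ry12-dominant cells.

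Among all genes with at least 20 thinned UMIs, 22.4% of 2370 in the control and 18.9% of 1474 after photoconversion had a ratio under 0.5, and 12% of 1455 did in both. Low counts scatter such ratios, and among genes with at least 200 thinned UMIs the shares were 10.9% of 248 and 8.24% of 182. The median log2 ratio of the 10 genes was -1.67 in the control and -1.47 after photoconversion, beside -0.24 and -0.05 over all genes with at least 20 thinned UMIs. Over genes with at least 200 thinned UMIs the median had the opposite sign, at 0.61 and 0.69. The list was drawn up from known homeostatic genes, so its direction is a description.

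**Figure D1:**
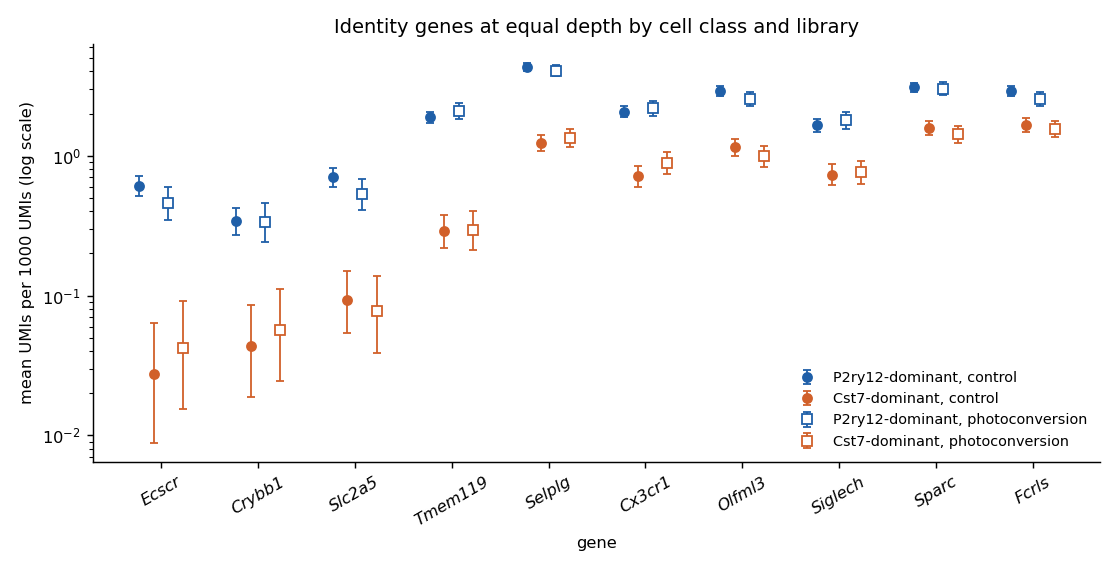
Mean UMIs per 1000 UMIs (log scale, thinned cells) of the 10 identity genes in P2ry12-dominant (blue) and Cst7-dominant (orange) cells. Filled circles are the control and open squares the photoconversion library, and bars are 95% Poisson intervals for counting error. The orange points lie below the blue ones for every gene, from Ecscr at 0.608 and 0.0273 to Fcrls at 2.89 and 1.67 in the control.

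The promoter sequences of 7 of the 10 genes were in the RefSeq table on GRCm38.p6, the same assembly as the files' mm10. Of these 3 are shown: Crybb1, with one of the lowest ratios, and Sparc and Fcrls, with the highest. Each runs 5′ to 3′ on the gene's strand from 250 bases before to 50 bases after the annotated start, in lower case. Capitals mark matches on either strand to any of 4 motifs: GGAAGT (ETS type, the family of the microglial factor PU.1), TGANTCA (AP-1), TGCTGAC (MAF) and CACGTG (E-box). Crybb1 lies at chr5:112255570-112255869 on the plus strand, Sparc at chr11:55420031-55420330 on the minus strand and Fcrls at chr3:87263475-87263774 on the minus strand.
Crybb1: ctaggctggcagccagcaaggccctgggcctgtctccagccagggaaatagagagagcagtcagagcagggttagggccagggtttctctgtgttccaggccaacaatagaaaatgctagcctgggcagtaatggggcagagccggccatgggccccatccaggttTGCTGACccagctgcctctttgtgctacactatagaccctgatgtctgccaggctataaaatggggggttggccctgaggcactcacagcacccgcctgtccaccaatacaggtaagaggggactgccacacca
Sparc: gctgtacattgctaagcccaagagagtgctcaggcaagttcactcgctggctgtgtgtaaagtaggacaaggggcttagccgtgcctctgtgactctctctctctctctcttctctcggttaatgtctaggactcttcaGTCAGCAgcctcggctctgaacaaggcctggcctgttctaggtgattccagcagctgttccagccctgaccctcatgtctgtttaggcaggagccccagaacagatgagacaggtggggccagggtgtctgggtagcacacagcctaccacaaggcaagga
Fcrls: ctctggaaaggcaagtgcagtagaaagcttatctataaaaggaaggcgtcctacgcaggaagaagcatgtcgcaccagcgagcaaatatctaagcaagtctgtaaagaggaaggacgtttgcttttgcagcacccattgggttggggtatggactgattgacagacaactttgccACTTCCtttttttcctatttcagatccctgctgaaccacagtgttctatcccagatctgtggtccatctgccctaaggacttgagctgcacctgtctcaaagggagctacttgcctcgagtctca
The MAF motif was matched in Crybb1, one of the lowest ratios, and in Sparc, one of the highest, and in 4.65% of all 32544 promoter sequences of this length. The ETS motif was matched in Fcrls and Siglech and in 23.7% of all promoters. Siglech alone held the E-box (7.17% of all), and 0 of 7 held the AP-1 motif (7.79% of all). All 3 sequences shown hold a match, whereas those of Cx3cr1, Olfml3 and Slc2a5 held none of the 4 motifs.

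Tmem119, a single-pass membrane protein whose function is poorly known and which serves as a standard microglial marker, was among the genes with the lowest ratios. It stood at 1.88 UMIs per 1000 (1.71 to 2.06) in P2ry12-dominant and 0.290 (0.217 to 0.379) in Cst7-dominant control cells. In the photoconversion library it stood at 2.09 (1.84 to 2.37) and 0.296 (0.213 to 0.400). The ratios were 0.154 (0.114 to 0.205) and 0.141 (0.0994 to 0.197), and the intervals of the classes did not overlap in either library. A Tmem119 UMI was found in 171 of 232 P2ry12-dominant (73.7%) and 44 of 183 Cst7-dominant control cells (24.0%), and in 81.5% and 22.5% after photoconversion. At full depth these shares were 83.8% and 60.9% in the control and 91.0% and 58.6% after photoconversion, so the unthinned shares of the deeper class understate the difference.

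Slc2a5, the fructose transporter GLUT5, had 163 and 17 thinned UMIs in the P2ry12-dominant and Cst7-dominant control cells, or 0.703 and 0.0929 per 1000. In the photoconversion library it had 63 and 11, or 0.529 and 0.0775 per 1000. The ratios were 0.132 (0.0752 to 0.218) and 0.146 (0.0695 to 0.280). The second moved to 0.436 with a limit of 5% mitochondrial UMIs. It was 0.309 in cells with microglia markers and few markers of other cells. Dropping cells also redraws the thinning, so with 11 UMIs these shifts are not read as effects of the filters. A UMI was found in 44.8% of P2ry12-dominant and 8.20% of Cst7-dominant control cells, and in 37.0% and 7.75% after photoconversion.

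Ecscr, a surface molecule first described on endothelial cells, had the lowest ratio of the 10. It had 141 UMIs in P2ry12-dominant and 5 in Cst7-dominant control cells, and 55 and 6 in the photoconversion library. The ratios were 0.0450 (0.0144 to 0.107) and 0.0914 (0.0322 to 0.212). With so few UMIs the control ratio moved to 0.0751 with another thinning seed and to 0.168 with at least 500 detected genes. The 5 control UMIs lay in 5 different cells, and so did the 6 photoconversion UMIs in 6. An Ecscr UMI was found in 0 of the 5 endothelial-marker cells of either library that could be thinned to 500 UMIs (0 to 52.2%). At that depth 13.8% and 13.1% of microglia-marker cells had one, so 5 cells are too few for a comparison.

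Crybb1, a beta-crystallin known from the lens and also expressed by microglia, is thought to be a cytosolic protein and is the exception in a list of surface and secreted factors. It had 79 and 8 UMIs in P2ry12-dominant and Cst7-dominant control cells and 40 and 8 in the photoconversion library. The ratios were 0.128 (0.0536 to 0.266) and 0.168 (0.0678 to 0.363), and the second moved to 0.311 with another thinning seed. The intervals of Crybb1, Slc2a5 and Tmem119 overlapped in each library, so their order was not resolved. That of Ecscr lay just below that of Tmem119 in the control and overlapped it after photoconversion.

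Selplg, Cx3cr1, Olfml3 and Siglech were lower by a smaller factor. Selplg encodes PSGL-1, the ligand of P-selectin, and stood at 4.32 (4.06 to 4.59) and 1.23 (1.08 to 1.41) in the P2ry12-dominant and Cst7-dominant control cells. After photoconversion it stood at 4.03 (3.68 to 4.41) and 1.34 (1.15 to 1.54). Its ratios of 0.286 (0.246 to 0.331) and 0.332 (0.279 to 0.393) lay above those of Tmem119 without overlap of the intervals. Tmem119 and Selplg are neighbours on chromosome 5, on the same strand and 18019 bases apart.

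Cx3cr1, the receptor of the neuronal chemokine fractalkine, stood at 2.06 (1.88 to 2.25) and 0.710 (0.594 to 0.844) in the control library. It stood at 2.18 (1.93 to 2.47) and 0.887 (0.739 to 1.06) in the photoconversion library. The ratios were 0.346 (0.282 to 0.420) and 0.406 (0.326 to 0.504). A Cx3cr1 UMI remained detectable in 45.4% of Cst7-dominant control and 52.1% of Cst7-dominant photoconversion cells, against 78.9% and 79.8% of P2ry12-dominant cells. Its ligand gene Cx3cl1 was nearly absent from these sorted cells, with 2 thinned UMIs in the control library, and the P-selectin gene Selp had 0.

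Siglech, a sialic acid-binding receptor that signals through the adaptor DAP12, stood at 1.65 (1.49 to 1.82) and 0.732 (0.614 to 0.867) in the control. It stood at 1.79 (1.56 to 2.05) and 0.761 (0.624 to 0.918) after photoconversion. The ratios were 0.445 (0.363 to 0.543) and 0.425 (0.334 to 0.538), with intervals that held 0.5, and both passed 0.5 with 2000 UMIs per cell, at 0.555 and 0.532. The adaptor gene Tyrobp went the other way, at ratios of 2.19 (2.04 to 2.35) and 2.34 (2.13 to 2.57), so the receptor was lower and its adaptor higher in Cst7-dominant cells. Hcst, which encodes the related adaptor DAP10, was at 2.31 (1.34 to 4.07) and 2.26 (1.06 to 5.24).

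Olfml3, a secreted olfactomedin-domain glycoprotein, stood at 2.91 (2.69 to 3.13) and 1.15 (0.998 to 1.31) in the control and at 2.54 (2.26 to 2.84) and 0.993 (0.836 to 1.17) after photoconversion. Its ratios of 0.395 (0.337 to 0.462) and 0.391 (0.318 to 0.479) lay under 0.5 with their intervals. They passed it with the summed UMIs of all cells, at 0.512 and 0.516, and in the control also with 2000 UMIs per cell, at 0.524. Cx3cr1, Olfml3 and Siglech had overlapping intervals in each library.

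Sparc and Fcrls had the highest ratios of the 10, though the interval of Sparc overlapped that of Siglech in both libraries. They were the 2 highest under 16 of 17 settings in the control but 10 of 17 after photoconversion. Sparc, a secreted collagen-binding matricellular protein, stood at 3.09 (2.87 to 3.33) and 1.57 (1.40 to 1.77) in the control and at 3.02 (2.71 to 3.35) and 1.43 (1.24 to 1.64) after photoconversion. The ratios of 0.509 (0.443 to 0.585) and 0.474 (0.397 to 0.564) fell on either side of 0.5, and both intervals held it. Fcrls, an Fc receptor-like scavenger receptor, stood at 2.89 (2.68 to 3.12) and 1.67 (1.48 to 1.86) in the control and at 2.55 (2.28 to 2.86) and 1.56 (1.36 to 1.78) after photoconversion. Its ratios were 0.576 (0.502 to 0.661) and 0.609 (0.510 to 0.727), both wholly between 0.5 and 1. A Fcrls UMI was found in 81.5% of P2ry12-dominant and 73.8% of Cst7-dominant control cells, a difference of -7.70 percentage points, the smallest of the 10. After photoconversion the shares were 79.8% and 69.7%.

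**Figure D2:**
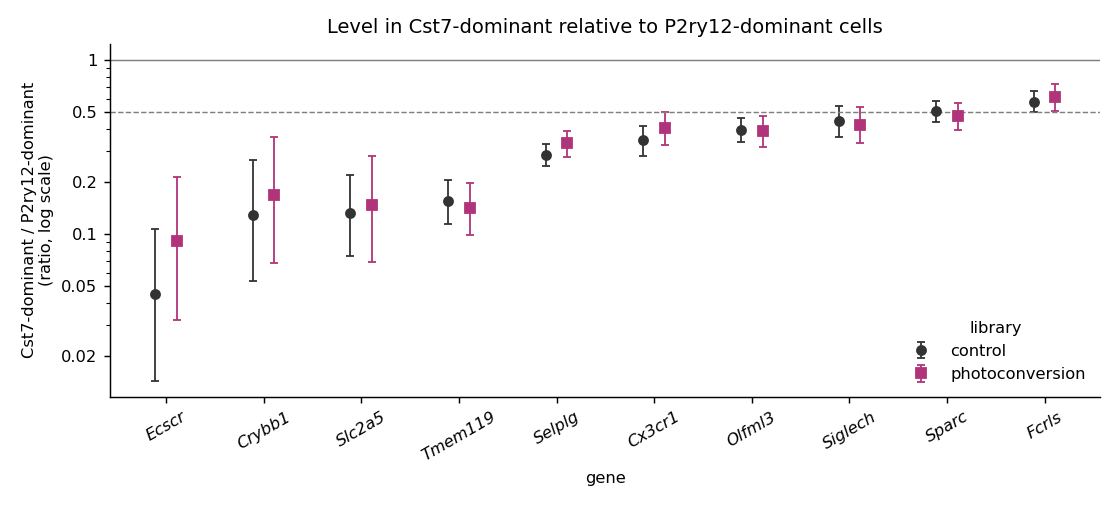
Ratio of the thinned level in Cst7-dominant to that in P2ry12-dominant cells (log scale), per gene and library, with exact 95% intervals for counting error. The solid line marks equal levels and the dashed line a ratio of 0.5. Ecscr, Crybb1, Slc2a5 and Tmem119 lie under 0.2 in both libraries, and Fcrls lies at 0.576 and 0.609.

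The ratio is a share of a cell's RNA, and Cst7-dominant cells yielded more UMIs in all, by a factor of 2.45 in the control and 2.37 after photoconversion on the mean. Counted as UMIs per cell at full depth, the 10 genes separated into those with fewer and those with more transcripts captured per cell. Tmem119 had 4.69 UMIs per P2ry12-dominant and 2.27 per Cst7-dominant control cell, a ratio of 0.483 (0.434 to 0.537), and 0.384 (0.340 to 0.434) after photoconversion. Ecscr, Crybb1 and Slc2a5 had ratios of 0.260, 0.396 and 0.497 in the control and 0.226, 0.302 and 0.553 after photoconversion. Selplg was slightly lower per cell, at 0.872 (0.824 to 0.922) and 0.923 (0.862 to 0.989).

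Cx3cr1 was at 0.988 (0.916 to 1.07) and 1.16 (1.06 to 1.26) per cell. Olfml3 had 7.38 UMIs per P2ry12-dominant and 9.24 per Cst7-dominant control cell, and 7.75 and 9.50 after photoconversion. Siglech, at 1.29 and 1.46, also had more UMIs per Cst7-dominant cell. Sparc, at 1.54 (1.46 to 1.63) and 1.49 (1.39 to 1.59), and Fcrls, at 1.87 (1.76 to 1.98) and 1.69 (1.57 to 1.83), had more still. In the control library 5 genes thus had fewer UMIs per cell, 4 had more and the interval of Cx3cr1 held 1. In the photoconversion library 5 had fewer and 5 more. The share of all genes with more UMIs per cell was not counted. Because Cst7-dominant cells held more UMIs in all, these counts are not read as particular to the 10 genes. Whether deeper cells held more RNA or were captured better was not tested.

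**Figure D3:**
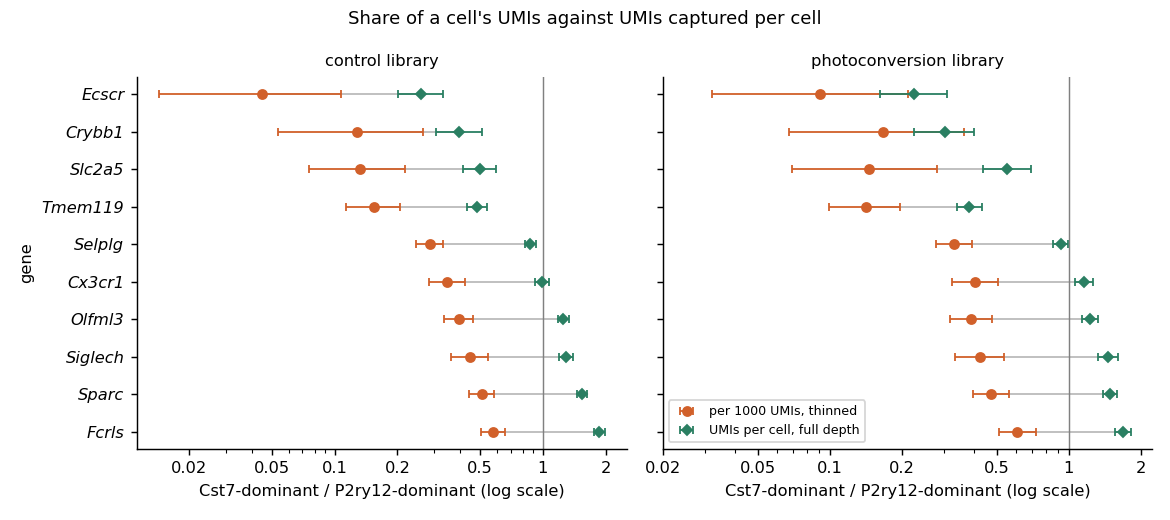
Ratio of Cst7-dominant to P2ry12-dominant cells (log scale) for each gene, as UMIs per 1000 in thinned cells (orange circles) and as UMIs per cell at full depth (green diamonds), with 95% counting intervals. All orange points lie left of the line at 1, whereas the green points lie on both sides of it, from Ecscr at 0.260 to Fcrls at 1.87 in the control.

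Cells were then ordered in steps, from those with P2ry12 and no Cst7 UMI, through those with both, to those with Cst7 and no P2ry12 UMI. Tmem119 stood at 2.14 (1.85 to 2.45), 1.70 (1.49 to 1.93), 0.331 (0.245 to 0.438) and 0.114 (0.0311 to 0.293) per 1000 over these 4 steps in the control. It stood at 2.36, 1.90, 0.325 and 0.105 in the photoconversion library. The largest drop lay between the cells in which P2ry12 led and those in which Cst7 led, while both genes were present. Cells with both in equal number were few, 9 and 5 after thinning, and are not read further.

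Ecscr had 65 UMIs in 95 P2ry12-only control cells and 0 UMIs in 35 Cst7-only control cells, which allows up to 0.0857 per 1000. In the photoconversion library it had 25 UMIs in 50 P2ry12-only cells and 0 in 19 Cst7-only cells, which allows up to 0.158 per 1000. Crybb1 did not go on down: it had 5 UMIs in 148 control cells in which Cst7 led with P2ry12 present and 3 in 35 Cst7-only cells, or 0.0338 (0.0110 to 0.0788) and 0.0857 (0.0177 to 0.250) per 1000, which overlap.

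Fcrls changed in smaller steps, from 3.66 (3.29 to 4.07) to 2.36 (2.11 to 2.63), 1.78 (1.58 to 2.01) and 1.17 (0.841 to 1.59) in the control. In the photoconversion library it stood at 2.58, 2.54, 1.69 and 0.684 (0.364 to 1.17). Sparc stood at 3.26, 2.97, 1.69 and 1.09 in the control and 3.04, 3.0, 1.5 and 1.0 after photoconversion. Cst7-only cells thus held Fcrls and Sparc at 0.684 to 1.17 per 1000. Barcodes with fewer than 200 genes, with their UMIs pooled, held Fcrls at 1.67 and 1.02 and Sparc at 1.62 and 1.15. The levels in Cst7-only cells were not above these. Whether such barcodes hold free RNA or shallow cells was not tested. Olfml3 was at 3.41 (3.05 to 3.80) in P2ry12-only control cells but 2.26 (1.86 to 2.72) in P2ry12-only photoconversion cells, and the photoconversion library had its highest level in the next step, 2.74 (2.36 to 3.16), within overlapping intervals. Cst7-only cells were shallow, with medians of 1523.5 and 1524 UMIs against 8436 and 9337 in cells with both genes and more Cst7. Only 19 photoconversion cells remained in that step. P2ry12-only cells were also shallower, with medians of 1297 and 2213 UMIs against 4216 and 3635.5 in cells with both genes and more P2ry12. Cells at either end may thus lack a UMI of the other gene through low depth, which was not tested.

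**Figure D4:**
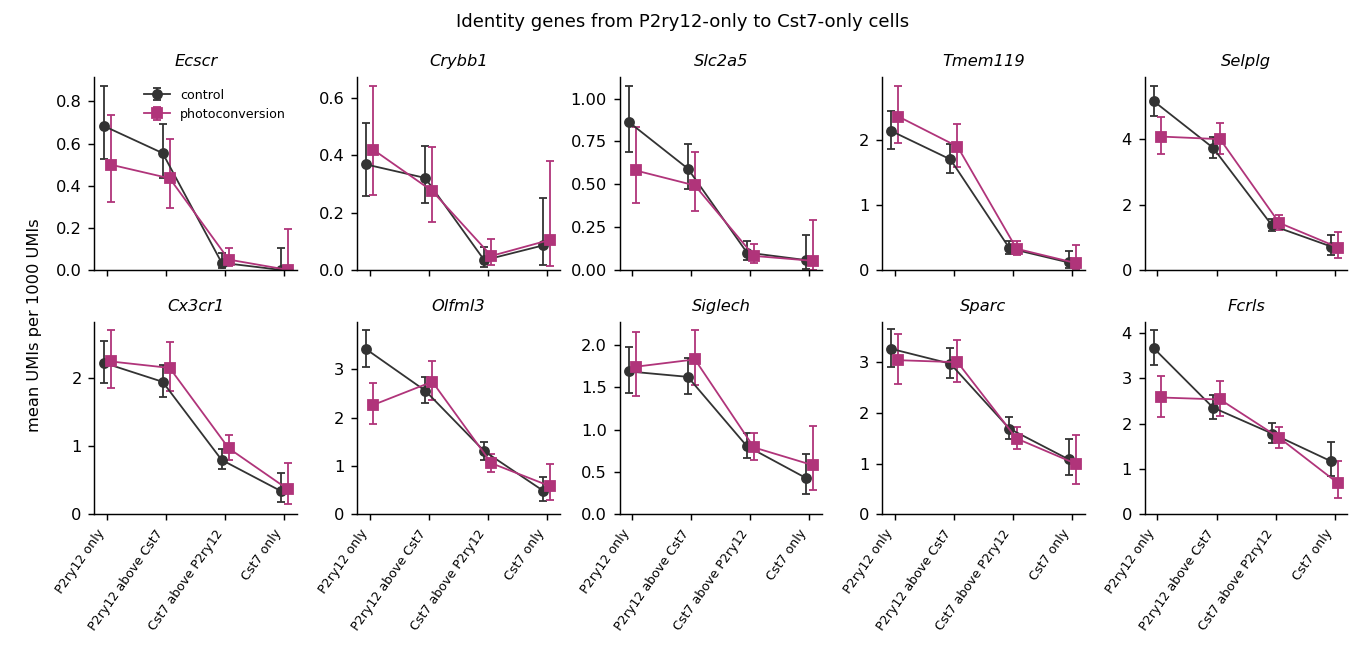
Mean UMIs per 1000 (thinned cells, linear axes from 0) of each gene in 4 steps from P2ry12-only to Cst7-only cells, for the control (black circles) and photoconversion library (magenta squares), with 95% Poisson intervals. Ecscr ends at 0 in both libraries, whereas Fcrls ends at 1.17 and 0.684.

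A single Cst7-dominant cell showed fewer of the 10 genes, as the shares per gene already give. At 1000 UMIs a P2ry12-dominant cell showed a median of 7 of the 10 genes in both libraries (quartiles 6 and 8), and a Cst7-dominant cell 4 (quartiles 3 and 5). Summed over the 10 genes, P2ry12-dominant cells had a median of 20 UMIs in the control (quartiles 12 and 27) and 18 after photoconversion (13 and 25). Cst7-dominant cells had 6 (4 and 10) and 7 (4 and 10). At least 8 of the 10 genes were seen in 107 of 232 P2ry12-dominant and 1 of 183 Cst7-dominant control cells, and in 53 of 119 and 2 of 142 photoconversion cells. Only 4 and 2 Cst7-dominant cells showed none of the 10. Correlations of gene pairs across cells of 1 class were weak, with median Spearman values from 0.09 to 0.21 over 45 pairs, which in counts this sparse is no finding.

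Other genes of the microglial program were lower too. Of 30 other identity genes, 17 were under 0.5 and 12 reduced in the control, with a median ratio of 0.471. In the photoconversion library the numbers were 15 and 14, with a median of 0.493. Of all genes with at least 20 thinned UMIs 22.4% and 18.9% were under 0.5, and of those with at least 200, 10.9% and 8.24%. The share of all genes that were reduced was not counted. The exception was Serpine2, a secreted protease inhibitor, at 1.48 (1.23 to 1.79) and 1.52 (1.19 to 1.96). The adhesion receptor Adgrg1 had the lowest control ratio of these, 0.173 (0.0757 to 0.348), and stood at 0.311 (0.151 to 0.603) after photoconversion. Cst3, which encodes cystatin C, was at 0.493 (0.480 to 0.505) and 0.50 (0.485 to 0.516), and C1qa, a chain of complement C1q, at 0.530 and 0.599. Tmem119, Slc2a5, Crybb1 and Ecscr thus had lower ratios than Cst3 and C1qa, and Fcrls, Sparc and Siglech had ratios of about the size of Cst3 and C1qa. In both libraries the interval of Adgrg1 overlapped those of Tmem119, Slc2a5, Crybb1 and Ecscr, so such low ratios were not particular to these members.

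Of the disease-associated genes 21 of 25 measured were more than 25% higher in the control and 19 of 24 after photoconversion, with 0 under 0.8. Of all genes with at least 20 thinned UMIs 29.6% and 36.4% were more than 25% higher, and of those with at least 200, 56.9% and 64.8%. Ctsd, a lysosomal protease, was at 1.38 (1.31 to 1.44) and 1.43 (1.35 to 1.52), and B2m, the light chain of MHC class I, at 1.53 (1.44 to 1.63) and 1.23 (1.14 to 1.32). Both were near or under the median of those abundant genes. Cd9, a tetraspanin, was at 0.965 (0.875 to 1.06) and 0.833 (0.736 to 0.943). The growth factor gene Igf1 had 0 UMIs in P2ry12-dominant and 39 in Cst7-dominant control cells, a ratio whose interval began at 12.8, and 1 and 46 in the photoconversion library.

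Among the genes whose thinned counts followed the sum of the 10 most closely across cells were Lgmn, Cst3, Malat1 and C1qa. Their Spearman correlations were 0.63, 0.63, 0.63 and 0.67 over 439 control cells and 0.67, 0.64, 0.64 and 0.55 over 272 photoconversion cells, out of 176 genes compared. All cells were thinned to the same depth, and each correlation spans both classes. Lgmn encodes the lysosomal protease legumain, and its class ratio was 0.317 in the control and 0.278 after photoconversion.

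Malat1, an abundant nuclear long non-coding RNA, differed strongly between the classes. Its median was 23.3 per 1000 in P2ry12-dominant and 4.18 in Cst7-dominant control cells, and 26.0 and 5.79 after photoconversion. Ribosomal protein genes took a median of 11.6% and 23.3% of UMIs in the control and 13.9% and 23.3% after photoconversion. Mitochondrial shares were close, from 3.09% to 3.34% over the 4 groups.

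In cells with at least 10 Malat1 UMIs per 1000, 31 Cst7-dominant and 194 P2ry12-dominant in the control and 37 and 98 after photoconversion, Tmem119 had ratios of 0.0965 and 0.138 and the median over the 10 genes was 0.335 and 0.366. In cells with fewer, 152 and 38 in the control and 105 and 21 after photoconversion, Tmem119 had ratios of 0.221 and 0.178 and the medians were 0.377 and 0.626. All 10 stayed under 1 in both strata of both libraries. The number under 0.5 was 6 and 8 in the Malat1-richer cells and 7 and 4 in the Malat1-poorer cells. Among Malat1-poorer photoconversion cells Cx3cr1 was at 0.850, Fcrls at 0.825 and Slc2a5 at 0.750, with 21 cells in the P2ry12-dominant class. The part of these RNA differences in the class ratios was not tested beyond this split, which was chosen after seeing the data.

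Markers of other cell types summed to under 0.5 UMIs per 1000 for each list in both classes. Endothelial and mural markers summed to 0.284 and 0.131 UMIs per 1000 in P2ry12-dominant and Cst7-dominant control cells and to 0.0252 and 0.486 after photoconversion, with a range per cell of 0 to 35, 0 to 19, 0 to 1 and 0 to 37 UMIs and a median of 0 throughout. Of the 12 genes 10, 8, 3 and 9 were detected, and Kcnj8 was at 0 in all 4 groups. Astrocyte markers stood at 0.155 and 0.448 in the control and 0.176 and 0.401 after photoconversion, with Aqp4 at 0 in all 4 and up to 30 UMIs in 1 cell. Oligodendrocyte markers stood at 0.151 and 0.317 and at 0.143 and 0.239, with a UMI in 12.1% and 19.1% and in 13.4% and 14.1% of cells. Of these Mbp, a myelin protein gene, had class ratios of 3.47 (1.88 to 6.74) and 2.75 (1.14 to 7.60). The part of these markers in the class ratios was not tested. Border macrophage markers stood at 0.0172 and 0.164 and at 0.00840 and 0.0141, with Cd163 and Lyve1 at 0 in all 4, and 25 of the 30 UMIs in Cst7-dominant control cells lay in 1 cell. Monocyte markers were at 0.0474 or less, and neutrophil markers had 1 UMI in the 4 groups together. Sparc is also an endothelial gene: of 6 endothelial-marker cells in each library 5 reached 500 UMIs, and all 5 had a Sparc UMI when thinned to that depth. Cells were then limited to those with at least 5 microglia marker UMIs. They also had fewer than 3 UMIs of each of the endothelial and mural, astrocyte, border macrophage and monocyte lists. In these cells Sparc had ratios of 0.512 and 0.487 and Tmem119 0.124 and 0.117. Oligodendrocyte and neutrophil markers were not limited.

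Free RNA can add to such levels. The 6 endothelial-marker cells of each library had a median depth of 1554 and 2025 UMIs, and microglia-marker cells one of 2657 and 3434.5. The 5 that were thinned had a UMI of Tmem119 in 0 and 1, of Cx3cr1 in 1 and 0 and of Olfml3 in 1 and 0 cells, and of Siglech, Fcrls, Selplg, Slc2a5, Crybb1 and Ecscr in 0. Of microglia-marker cells thinned to the same 500 UMIs, 33.9% and 33.3% had a Tmem119 UMI. With 5 cells this background is set only loosely. Pooled over all their UMIs, barcodes with fewer than 200 genes carried Tmem119 at 0.708 (0.579 to 0.858) and 0.572 (0.447 to 0.722) per 1000. This was above its level in Cst7-dominant cells. Ecscr stood there at 0.136 (0.0832 to 0.210) and 0.113 (0.0617 to 0.189). In these barcodes 9 of the 10 genes stood at or above their level in Cst7-dominant cells in the control, all but Olfml3, and 4 of 10 after photoconversion (Tmem119, Slc2a5, Crybb1 and Ecscr). The part that free RNA has in the UMIs of these genes was not tested.

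Between the libraries the 10 genes differed less than between the classes. Over all kept cells, 8 of 10 were lower in the photoconversion than in the control library, with a median log2 ratio of -0.18 beside -0.05 over all 3635 genes measured. The interval lay under 1 for 6 of them, as for 4.21% of all genes, many of which have too few UMIs for a narrow interval: Slc2a5 at 0.661 (0.499 to 0.870), Ecscr at 0.672 (0.491 to 0.909), Olfml3 at 0.811 (0.723 to 0.908), Fcrls at 0.871 (0.783 to 0.968), Selplg at 0.878 (0.799 to 0.965) and Sparc at 0.883 (0.796 to 0.978). Tmem119 was at 0.964 (0.832 to 1.12), Cx3cr1 at 1.02 (0.894 to 1.16), Siglech at 1.01 (0.880 to 1.16) and Crybb1 at 0.887 (0.615 to 1.27), with intervals that held 1. Slc2a5 and Ecscr were the 2 of 10 under 0.8, a mark that 26.9% of all genes passed, and 0 of 10 were more than 25% higher, as 18.2% of all genes were.

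Within classes the intervals of all 10 genes held 1, and 6.34% of all genes in P2ry12-dominant and 5.96% in Cst7-dominant cells had one that did not. In P2ry12-dominant cells the ratios ran from 0.754 for Slc2a5 (0.554 to 1.01) to 1.11 for Tmem119 (0.949 to 1.30), with a median log2 ratio of -0.07 beside -0.04 over all genes. Again 2 of 10 were under 0.8, where 28.5% of all genes were, and 0 of 10 more than 25% higher, where 20.3% were. In Cst7-dominant cells the median log2 ratio was 0.04 beside -0.01 over all genes, with Cx3cr1 at 0.710 and 0.887 per 1000, a ratio with an interval from 0.970 to 1.61, and Olfml3 at a ratio of 0.865 (0.694 to 1.08). There 0 of 10 were under 0.8, where 24.0% of all genes were, and 2 of 10 more than 25% higher, where 19.1% were. Those 2 were Crybb1, with 8 UMIs in each library, and Ecscr, with 5 and 6, so no difference was detectable at this depth. Class shares differed between the libraries, as given above, and their part in the difference over all cells was not tested further.

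**Figure D5:**
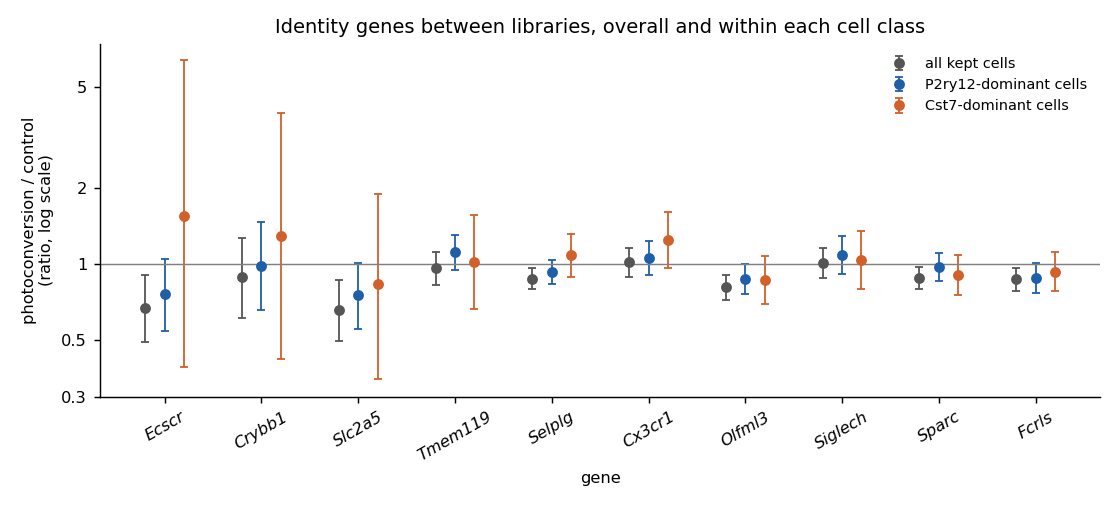
Ratio of the photoconversion to the control library (log scale, thinned cells) for each gene over all kept cells (grey), P2ry12-dominant cells (blue) and Cst7-dominant cells (orange), with exact 95% counting intervals. Grey intervals lie under 1 for 6 genes, whereas all blue and orange intervals hold 1.

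The genes lie on 7 chromosomes of mm10 and all are annotated as protein-coding. Tmem119 (ENSMUSG00000054675) lies at 113793729 to 113800516, Selplg (ENSMUSG00000048163) at 113818536 to 113832644 and Crybb1 (ENSMUSG00000029343) at 112255815 to 112269585 of chromosome 5. Fcrls (ENSMUSG00000015852) lies at 87250758 to 87263738 and Olfml3 (ENSMUSG00000027848) at 103722222 to 103738001 of chromosome 3. Cx3cr1 (ENSMUSG00000052336) lies at 119901616 to 120069879 of chromosome 9, Siglech (ENSMUSG00000051504) at 55768178 to 55778925 of chromosome 7 and Slc2a5 (ENSMUSG00000028976) at 150119283 to 150144169 of chromosome 4. Sparc (ENSMUSG00000018593) lies at 55394500 to 55423183 of chromosome 11, and Ecscr (ENSMUSG00000073599) at 35713086 to 35722356 of chromosome 18. Counts cover whole genes, so exons and transcript ends were not told apart.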

How the data were processed

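The authors deposited raw UMI counts per gene and barcode for 2 droplet libraries, with 2000 barcodes in each. The submitters' processing notes name bcl2fastq, Cell Ranger and the mm10 build, and Cell Ranger 3.0.2 is the version per the file headers. Barcodes passed with a minimum of 200 detected genes and a limit of 10% mitochondrial UMIs, and doublets were not removed.

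Cells were classed by Cst7 against P2ry12 UMIs at full depth. Each cell of at least 1000 UMIs was thinned to 1000 without replacement (numpy 2.4.6, seed 1), and counts were summed per class and library. Levels carry exact Poisson, shares exact Clopper-Pearson and ratios exact conditional binomial 95% intervals (scipy 1.17.1). They cover counting error only, and cells vary more than that. Thinning and ratios were tested on simulated counts with known folds. The simulation used abundant genes and classes set without regard to depth. It did not cover genes with few UMIs or the depth difference between the classes. Bounds for a count of 0 use 3 counts.

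The 10 genes and the other lists were chosen with earlier results of these data known. Named genes of other lists were the most abundant and those with the most extreme ratio, and of these the ones that bear on the result are described. One list entry without a match is not analysed here, and 1 gene that followed the sum of the 10 is not reported here. Promoter sequences came from RefSeq on GRCm38.p6 and coordinates from GENCODE M21 on the same assembly. Proteins were not used here. Endothelial-marker cells had at least 3 endothelial or mural UMIs and more of these than of microglia markers. Another 12 settings for depth, classes, filters, doublets and single cells were run, and 4 more were added after seeing the data. Settings that drop cells before thinning also redraw it, and filter and redraw were not told apart.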

Additional observations from a re-analysis of the deposited data

How the results depend on the processing

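No paired analysis was possible because each group was 1 library. Over 16 alternatives, all 320 ratios of Cst7-dominant to P2ry12-dominant cells stayed under 1, and 256 stayed within the counting interval of the reported value. The number of genes under 0.5 ran from 6 to 9 in the control and from 4 to 10 in the photoconversion library, with 4 only in Malat1-poorer cells. Ecscr, Crybb1, Slc2a5 and Tmem119 lay below the other 6 genes under all 17 settings in the control and 14 of 17 after photoconversion. The exceptions were another thinning seed, a 5% mitochondrial limit and Malat1-poorer cells. Tmem119, Selplg, Crybb1 and Ecscr stayed under 0.5 under all 17 settings in both libraries, and the other 6 genes crossed it in at least 1. Fcrls ran from 0.484 to 0.767 in the control and from 0.354 to 0.825 after photoconversion.

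The median log2 ratio between classes in the control moved to -1.42 with 2000 UMIs per cell, -1.40 with summed UMIs of all cells, -1.98 without the deepest 5% of cells and -1.41 in Malat1-poorer cells. In the photoconversion library it moved to -1.20 with summed UMIs, -0.68 in Malat1-poorer cells and -2.21 in cells of 2000 to 5000 UMIs. The share of Cst7-dominant cells moved to 29.5% and 39.4% with at least 3 UMIs between the genes, and to 41.6% in the control with at least 500 genes. It was 11% and 26.3% in Malat1-richer cells, 66.0% and 70.9% in Malat1-poorer cells, and 32.2% and 38.8% in cells of 2000 to 5000 UMIs. The photoconversion over control median over all cells moved to -0.35 with 500 UMIs per cell and -0.0188 in Malat1-poorer cells, where Slc2a5 turned to a ratio of 1.08. It moved to -0.66 within Cst7-dominant cells of 2000 to 5000 UMIs and to -0.44 within Malat1-poorer P2ry12-dominant cells. The cause of these shifts was not tested. The Malat1, 2000 to 5000 UMI and ribosome-free settings were chosen after seeing the data. Depth limits Ecscr, Crybb1 and Slc2a5, which kept 17 or fewer thinned UMIs in Cst7-dominant cells of a library.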
